A study of Mus musculus with 6 samples.

Results

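The genes of fatty acid oxidation and targets of the nuclear receptor PPAR-alpha were examined in RNA from whole liver of 6 C57BL/6 mice, all given thioacetamide (TAA), a hepatotoxin that scars the liver, at 400 mg/L in the drinking water over 16 weeks. In 3 mice (labelled Lrat-Cre; Prmt1f/f, numbers 49, 82 and 88, called knockout mice here) Cre recombinase expressed from Lrat, a gene of hepatic stellate cells, met a floxed allele of the arginine methyltransferase gene Prmt1. The other 3 mice (labelled Prmt1f/f, numbers 42, 83 and 90, called control mice here) carried the floxed allele alone. The labels give an age of 10 weeks without saying to which time point it refers, and give no sex. There was no mouse without TAA, so the effect of TAA was not measured. The 30 genes were chosen by name as enzymes, carriers, regulators and targets of the pathway, with earlier results of these data known. They came out of 21983 gene symbols in the count table, and all 30 passed the filter on low counts that left 13153 genes.

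The liver takes up fatty acids released by fat tissue in fasting and burns them by beta-oxidation, which removes acetyl units from the acyl chain in mitochondria and, for very long chains, in peroxisomes. Long chains enter mitochondria as carnitine esters. PPAR-alpha is a receptor for fatty acids and fibrate drugs that binds DNA as a dimer with the retinoid X receptor, at direct repeats of a hexamer separated by a single base, and drives most genes of this pathway in hepatocytes. Lrat marks stellate cells, which store retinoids and form scar, so the Cre is not aimed at the hepatocytes in which this pathway is most active. In RNA of whole liver, fewer cells of a type and less RNA per cell cannot be told apart.

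Total counts ranged from 13303884 to 16462278 per mouse. Levels are given as CPM, counts relative to library size after scaling between libraries. Prmt1 had 38.9, 44.4 and 49.8 CPM in control mice 42, 83 and 90 and 35.8, 24.7 and 25.8 CPM in knockout mice 49, 82 and 88 (log2 fold change -0.62, SE 0.20; edgeR quasi-likelihood adjusted p = 0.347). The groups did not overlap for Prmt1, which is measured here together with all liver cells that do not express Lrat. Of 15 hepatocyte marker symbols 14 were in the table, with summed levels from 86907.5 to 136063 CPM in control and from 107675 to 132966 CPM in knockout mice, so the tissue carries the markers of its label. Adipocyte and muscle markers, whose cells also burn or store fat, summed to 0.60 CPM or less in every mouse. Adipoq, Lep, Cfd and Myh4 had no count in any mouse.

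The PPAR-alpha binding pattern was searched in the promoters of the 30 genes because it is the sequence that the receptor reads. The pattern was AGGTCANAGGTCA, read on both strands, in RefSeq promoters of the GRCm38.p6 assembly that run from 250 bases before to 50 bases after a start site. Promoters were found for 26 of the 30 genes. No member promoter held the pattern without a mismatch. With at most 2 mismatches over its 12 fixed bases, 4 of 26 members (15.4%) held it, against 1188 of the 26994 genes (4.4%) that have a RefSeq promoter. With at most 3 mismatches the shares were 30.8% and 27.3%. The 4 genes were Fabp1 with 1 mismatch and Creb3l3, Slc25a20 and Acot4 with 2. The match of Slc25a20 lies in its first exon. The other 3 lie outside exons and are printed from the 5′ end in the direction of transcription, the match in capitals. Matches in Fabp1 and Acot4 read the pattern on the opposite strand. That of Creb3l3 lies in an intron, before the inner of its 2 start sites.
Fabp1 (chr6:71199629-71199826, plus strand): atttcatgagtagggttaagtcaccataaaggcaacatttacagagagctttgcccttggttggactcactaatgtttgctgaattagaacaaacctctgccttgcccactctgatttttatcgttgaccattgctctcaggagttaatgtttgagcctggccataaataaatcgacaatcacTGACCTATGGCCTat
Acot4 (chr12:84038326-84038378, plus strand): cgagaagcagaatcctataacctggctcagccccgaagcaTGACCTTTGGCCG
Creb3l3 (chr10:81092748-81092806, minus strand): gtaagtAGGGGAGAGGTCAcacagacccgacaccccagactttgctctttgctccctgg
The match of Fabp1 begins 67 bases before its start site and that of Acot4 begins 13 bases before. The 3 genes that hold the closest matches outside exons did not share a direction: between genotypes Fabp1 had a negative log2 fold change, Acot4 and Creb3l3 a positive one. A match is a likeness of letters and not a measured binding site.

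The 30 genes covered a wide range of abundance. Per kilobase of exon, a scale on which genes can be roughly compared, Fabp1 was the most abundant. It had 3102 ± 1390 CPM per kb (SD, n = 3) in control mice. The length counts all annotated exons of a gene, used in liver or not, so the order depends on the annotation. Fabp1 encodes the fatty acid binding protein of the hepatocyte cytosol. Acaa2, the mitochondrial thiolase that ends each turn of beta-oxidation, followed with 514 ± 150.2 CPM per kb. Acaa1b, a peroxisomal thiolase, had 183 ± 51.3 CPM per kb and Ehhadh, the peroxisomal bifunctional enzyme, 145 ± 23.4 CPM per kb, and these neighbours did not differ beyond their spread. Of the 8 genes of the mitochondrial spiral all but Acaa2 and Hadhb lay between 39.2 (Hadha) and 83.5 CPM per kb (Acadl). The thioesterases Acot1, Acot2 and Acot4 lay between 4.92 and 10.1 CPM per kb, and Acot3 was lowest with 0.777 ± 0.0342 CPM per kb. Hadha and Hadhb encode the subunits of the same trifunctional protein, yet Hadhb had 5.98 ± 1.63 CPM per kb against 39.2 ± 10.0 for Hadha. Of the 50-base words in Hadhb transcripts, 19.7% also occur in transcripts of other genes, most of them in Gm13910, and the part of shared sequence in this level was not tested.

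**Figure D1:**
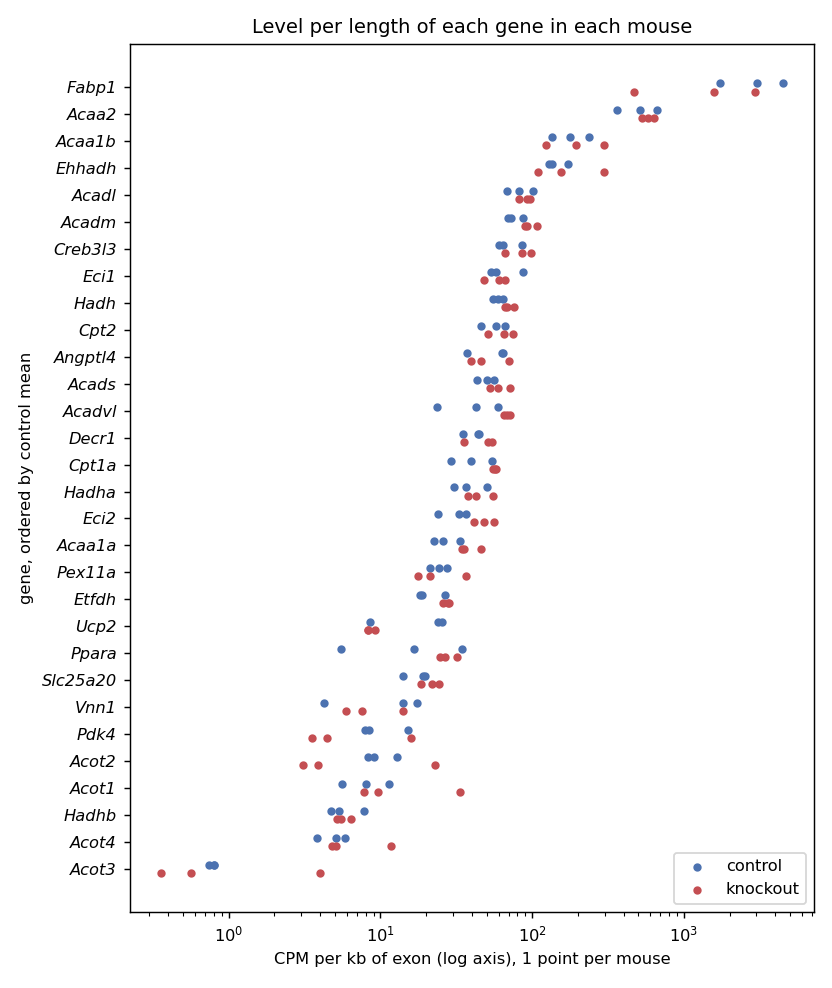
Level of each of the 30 genes per kilobase of exon (x axis, CPM per kb, logarithmic) in each of 3 control mice (blue) and 3 knockout mice (red), genes ordered by the control mean. Fabp1 is at the top and Acot3 at the bottom, and the points of most enzymes of both genotypes overlie each other, while a single knockout mouse lies to the right for Acot1 to Acot4.

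Between genotypes, none of the 30 genes passed the threshold of 0.05 on the adjusted p of edgeR, and none passed in DESeq2 or limma-voom. Of all genes tested, 0% passed in edgeR, 0% in limma-voom and 1.81% in DESeq2. The smallest adjusted p of a member in edgeR was 0.33, for Ucp2, against 0.0978 over all genes. At an unadjusted p under 0.05 edgeR gave 4 members. Of these 3 were higher in knockout mice (Acadvl, Eci2 and Acaa1a), 10% of the 30 against 5.06% of all genes, and 1 was lower (Ucp2), 3.33% against 5.95%. The log2 fold change of knockout over control was above 0 in 22 members (73.3%), against 47.3% of all genes. Its median was 0.22 over the members and -0.02 over all genes. In 6 members (Cpt1a, Acadm, Acadvl, Hadh, Eci2 and Acaa1a) the groups did not overlap and the knockout mice were higher, 20% of the 30 against 8.94% of all genes. In 0 members were they lower without overlap, against 7.95%, so that in either direction 20% of the members and 16.9% of all genes did not overlap. Without knockout mouse 49 the median was 0.05, with 18 members above 0 against 46.9% of all genes. Without control mouse 42 the median was 0.35, and it was the same to this precision without knockout mouse 88. Among the 4 mice numbered over 80 alone, 19 members were above 0, against 47.4% of all genes.

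**Figure D2:**
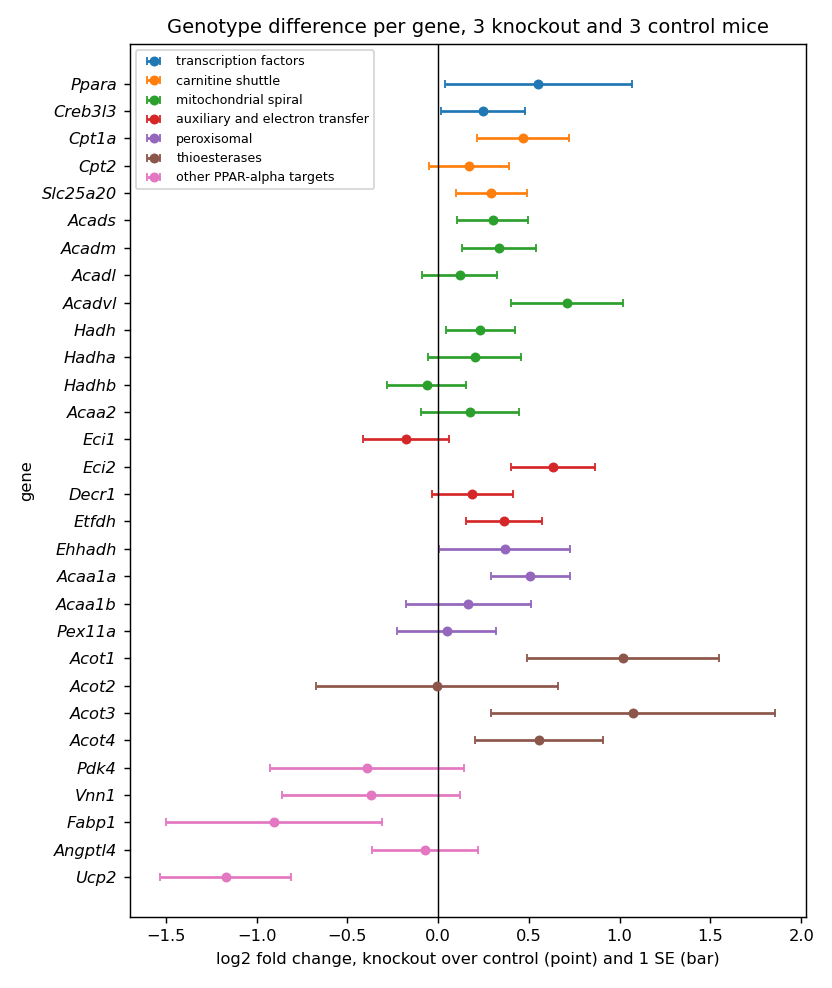
Log2 fold change of knockout over control (x axis; point, with a bar of 1 SE to each side) for each of the 30 genes, from the fit on 3 knockout and 3 control mice, coloured by role. The points of 22 genes lie right of 0, and the 5 genes grouped as other PPAR-alpha targets (pink, at the bottom) all lie left of 0.

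The members were grouped by role, with earlier results of these data known. The 5 genes grouped as other PPAR-alpha targets (Pdk4, Vnn1, Fabp1, Angptl4 and Ucp2) each had a negative log2 fold change, with a median of -0.39. Of the other 25 members 22 had a positive one, with a median of 0.29. Targets of PPAR-alpha are also among these 25, such as Pex11a. Angptl4 (-0.07, SE 0.29) turned positive without control mouse 42, control mouse 90 or knockout mouse 88. Vnn1 did so without control mouse 83, while Pdk4, Fabp1 and Ucp2 stayed negative with any mouse left out.

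Ppara itself, the receptor, had 132, 64.2 and 21.2 CPM in control mice 42, 83 and 90 and 94.8, 122 and 102 CPM in knockout mice 49, 82 and 88. The groups overlapped, because control mouse 42 was the highest and control mouse 90 the lowest of all 6. Its log2 fold change of 0.55 (SE 0.51) was 1.31 without control mouse 42 and 0.08 without control mouse 90. Creb3l3, a membrane-bound factor of the liver that is cut and activated in fasting and shares targets with PPAR-alpha, had 258, 195 and 182 CPM in control and 296, 259 and 199 CPM in knockout mice. Its groups overlapped as well (0.25, SE 0.23), and the value was 0.42 without control mouse 42 and 0.12 without knockout mouse 49.

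The carnitine shuttle moves long-chain acyl groups into mitochondria, and its 3 genes had positive log2 fold changes from 0.17 to 0.47. Cpt1a, the outer-membrane transferase that limits the rate of entry, had 414, 303 and 224 CPM in control mice 42, 83 and 90 and 424, 443 and 433 CPM in knockout mice 49, 82 and 88. The groups did not overlap, mouse 49 lying above mouse 42 by a small margin, and knockout mice lay closer together (433 ± 9.92 against 314 ± 95.4 CPM, SD, n = 3). For Cpt1a the log2 fold change was 0.47 (SE 0.25, adjusted p = 0.521 in edgeR), 0.72 without control mouse 42 and 0.23 without control mouse 90. Cpt2, the inner-membrane transferase, ranged from 109 to 158 CPM in control and from 122 to 178 CPM in knockout mice. Slc25a20, the carnitine-acylcarnitine carrier, ranged from 67.8 to 94.6 and from 89.5 to 117 CPM. Both sets of groups overlapped.

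Of the 8 genes of the mitochondrial beta-oxidation spiral 7 had a positive log2 fold change, with a median of 0.22. Acadvl, the very long-chain acyl-CoA dehydrogenase, stood furthest from 0. It had 160, 115 and 63.0 CPM in control mice 42, 83 and 90 and 184, 193 and 176 CPM in knockout mice 49, 82 and 88. Every knockout mouse was above every control mouse, and control mouse 90 was the lowest, as it was for Ppara and Cpt1a. With all mice the log2 fold change was 0.71 (SE 0.31, adjusted p = 0.449 in edgeR), and it was 0.39 without control mouse 90 and 1.06 without control mouse 42. Exons of Dvl2 on the opposite strand cover 42.9% of the exon length of Acadvl, and reads of the pair cannot be told apart without strand.

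Acadm, the medium-chain dehydrogenase, had 340.5, 273 and 285 CPM in control and 419, 364 and 350.5 CPM in knockout mice (0.34, SE 0.20). Hadh, the short-chain hydroxyacyl-CoA dehydrogenase, had 322, 273 and 295 CPM in control and 341, 377 and 327 CPM in knockout mice (0.23, SE 0.19). The groups did not overlap in either gene, but the distance from the highest control to the lowest knockout mouse was small. Acads, the short-chain dehydrogenase, ranged from 98.1 to 127 CPM in control and from 120.3 to 162 CPM in knockout mice. Acadl, the long-chain dehydrogenase, ranged from 136 to 203 and from 165 to 195 CPM, and Hadha from 267 to 438 and from 329.8 to 479.5 CPM. Acaa2 ranged from 552 to 1007 in control and from 806 to 965 CPM in knockout mice, and Hadhb from 31.3 to 51.6 and from 34.3 to 42.2 CPM. In these 5 genes the groups overlapped.

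Among the enzymes that handle double bonds, Eci2 and Eci1 differed in sign. Eci2, an enoyl-CoA isomerase, had 183, 132 and 204 CPM in control mice 42, 83 and 90 and 309.9, 268 and 228 CPM in knockout mice 49, 82 and 88. The knockout mice were all above the control mice (269 ± 41.1 against 173 ± 36.9 CPM, SD, n = 3; log2 fold change 0.63, SE 0.23, adjusted p = 0.384 in edgeR), and 11.1% of the 50-base words in its transcripts also occur in other genes. Eci1, the mitochondrial isomerase of the same family, had 114, 122 and 185 CPM in control and 141, 128 and 103 CPM in knockout mice (-0.18, SE 0.24), with overlapping groups. Decr1, the dienoyl-CoA reductase, ranged from 135 to 174 and from 138 to 211 CPM (0.19). Etfdh, which passes electrons from the acyl-CoA dehydrogenases to ubiquinone, ranged from 136 to 201 CPM in control and from 194 to 212 CPM in knockout mice (0.36, SE 0.21), control mouse 42 being level with the knockout mice.

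Peroxisomal members had in common that knockout mouse 49 was the highest of the 6 in 3 of 4. Ehhadh had 403, 513 and 384 CPM in control mice 42, 83 and 90 and 892, 458 and 327 CPM in knockout mice 49, 82 and 88. The highest and the lowest of all 6 mice were thus both knockout mice, and the log2 fold change of 0.37 (SE 0.36) became -0.14 without mouse 49. Acaa1b had 466, 266 and 346 CPM in control and 584, 383 and 243 CPM in knockout mice (0.17, and -0.20 without mouse 49). Pex11a, a membrane protein of dividing peroxisomes and a PPAR-alpha target, had 87.2, 67.6 and 76.9 CPM against 116, 67.0 and 55.9 CPM (0.05, and -0.33 without mouse 49). Acaa1a, the close copy of Acaa1b, did not follow this order. It had 114, 100.1 and 147 CPM in control and 152, 204 and 157 CPM in knockout mice, all above the control mice (0.51, SE 0.22, adjusted p = 0.447 in edgeR, and 0.35 without knockout mouse 82). Acaa1b shares 30.5% of its 50-base transcript words with Acaa1a, and how the counting treated reads of such copies is not given in the sources used here.

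The acyl-CoA thioesterases Acot1 to Acot4, which release free fatty acids from acyl-CoA and form a gene cluster on chromosome 12, varied widely among the mice, with ratios of the highest to the lowest mouse from 3.11 for Acot4 to 11.1 for Acot3. Acot1, the cytosolic enzyme, had 44.9, 31.6 and 22.0 CPM in control mice 42, 83 and 90 and 131, 37.7 and 30.6 CPM in knockout mice 49, 82 and 88. Acot3, a peroxisomal enzyme, had 2.73, 2.74 and 2.54 CPM in control and 13.6, 1.95 and 1.23 CPM in knockout mice. The counts behind Acot3 were 41, 54 and 31 in control and 212, 26 and 17 in knockout mice, so its values carry the largest counting error of the 30. Mouse 49 was the highest in both, while the other 2 knockout mice lay within the control range for Acot1 and below it for Acot3. Acot2, the mitochondrial enzyme, had 28.2, 18.3 and 19.8 CPM against 50.5, 8.47 and 6.77 CPM. Acot4, another peroxisomal enzyme, had 39.3, 33.8 and 25.4 CPM against 78.9, 32.0 and 33.9 CPM. For Acot2 the control mice lay between mouse 49 above and mice 82 and 88 below. With all mice the log2 fold changes were 1.02 (SE 0.53) for Acot1, -0.01 (SE 0.67) for Acot2, 1.07 (SE 0.78) for Acot3 and 0.56 (SE 0.35) for Acot4. Without mouse 49 they were 0.06, -1.53, -0.75 and 0.01, with an adjusted p of 0.0928 for Acot2 in edgeR. Acot2 shares 24.55% of its 50-base transcript words with Acot1, and 13.6% of those of Acot1 occur in Acot2, so the split of reads between these copies is uncertain.

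**Figure D3:**
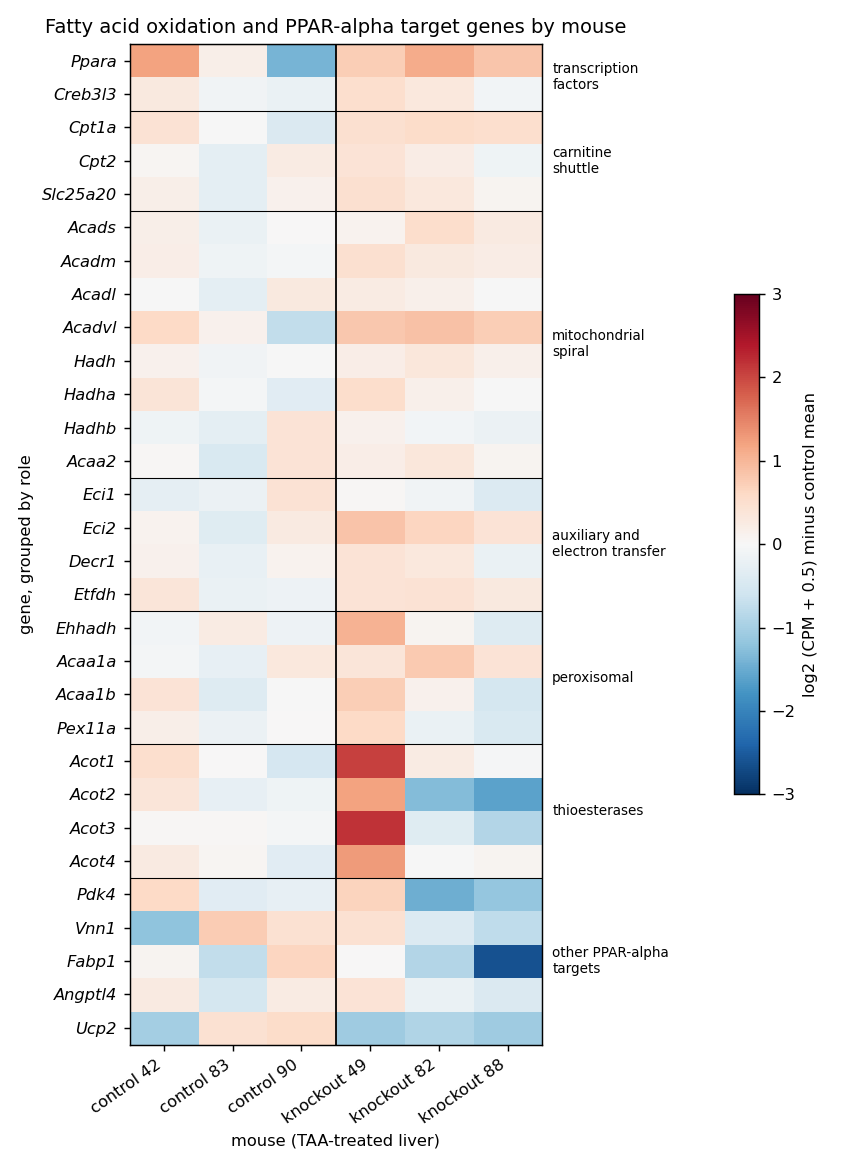
Level of the 30 genes (rows, grouped by role) in each of the 6 mice (columns) as log2 of CPM plus 0.5, minus the mean of the 3 control mice. Red is above and blue below the control mean, and the column of knockout mouse 49 is red across Acot1 to Acot4 where mice 82 and 88 are pale or blue.

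Mouse 49 was also the highest in genes other than the thioesterases. Mouse 49 was the highest of the 6 mice in 16 of the 30 genes (53.3%), against 18.2% of all genes. This count includes Acot1 to Acot4, from which the pattern was read. In 5 genes (Ehhadh and Acot1 to Acot4) mouse 49 had at least 1.5 times the level of each other mouse. These are 16.7% of the 30, against 0.373% of all genes. The criterion was chosen after the values were seen, and only Ehhadh of these genes is no thioesterase. At the other end control mouse 83 was the lowest in 13 genes (43.3%), against 17.4% of all genes, and knockout mouse 88 in 7 (23.3%), against 14.2%. Control mouse 90 was the lowest in 7 as well, against 27.3% of all genes. Control mouse 42 was the lowest in 1, for Vnn1, against 9.49% of all genes. The ratio of the highest to the lowest mouse over all 6 had a median of 2.01 over the members and 1.68 over the 8873 genes with a mean of at least 10 CPM. It ranged from 1.38 for Hadh to 11.1 for Acot3. Within the knockout mice alone the ratio was 1.05 for Cpt1a, 1.09 for Acadvl and 1.29 for Ppara, against 7.46 for Acot2, 6.22 for Fabp1 and 4.52 for Pdk4. Among control mice these ratios were 1.85, 2.55 and 6.23 for the first 3 genes and 1.54, 2.6 and 1.91 for the others. These 6 genes were picked with their values known, to show the contrast. Cpt1a, Acadvl and Ppara had the higher ratio among control mice and Acot2 and Pdk4 among knockout mice, while Fabp1 spread in both groups (SD of 769 CPM in control and 681 CPM in knockout mice).

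**Figure D4:**
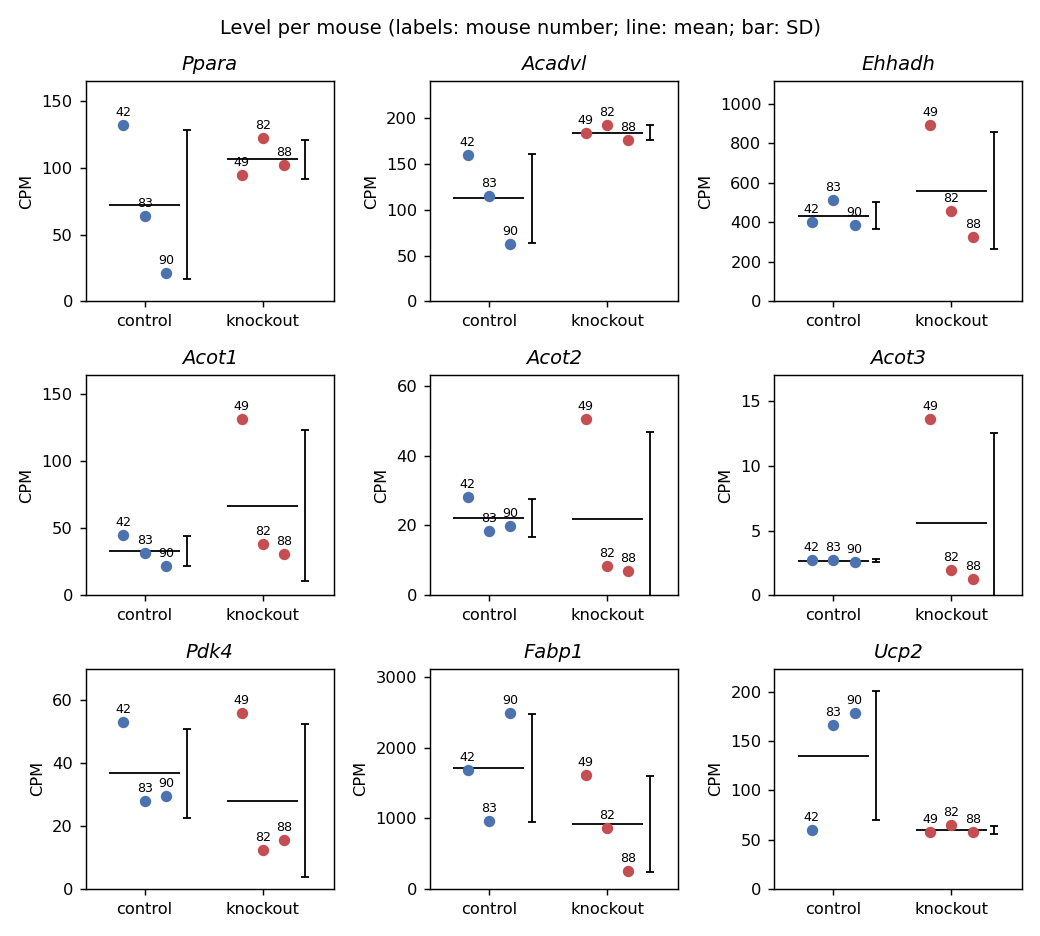
Level (y axis, CPM, from 0) of 9 of the genes in each mouse, labelled by mouse number, with the mean as a line and the SD as a bar, which is cut at 0 for Acot2 and Acot3. Ppara and Acadvl spread among control mice, Ehhadh, Acot1, Acot2 and Acot3 are highest in knockout mouse 49, and Ucp2 is high in control mice 83 and 90.

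The 5 genes grouped as other PPAR-alpha targets each had a lower mean in knockout mice, with wide spread. On the log2 scale their mean relative to the control mean was 0.10 in mouse 49, -0.77 in mouse 82 and -1.20 in mouse 88. Fabp1 had 1688, 961 and 2497 CPM in control mice 42, 83 and 90 and 1619, 869 and 260.4 CPM in knockout mice 49, 82 and 88. The groups overlapped, mouse 49 lying beside control mouse 42 and mouse 88 far below every other mouse. For Fabp1 the log2 fold change was -0.90 (SE 0.60, adjusted p = 0.59 in edgeR), -1.60 without mouse 49 and -0.47 without mouse 88. Pdk4, the kinase that shuts pyruvate out of oxidation when fat is burned, had 53.1, 27.8 and 29.4 CPM in control and 56.0, 12.4 and 15.6 CPM in knockout mice. Mice 82 and 88 lay below all others and mouse 49 above all others (-0.39, SE 0.54, and -1.39 without mouse 49). Angptl4, a secreted inhibitor of lipoprotein lipase, had 226, 131 and 224 CPM against 249, 164 and 139 CPM (-0.07, SE 0.29, and -0.35 without mouse 49). Vnn1, the pantetheinase vanin, had 10.3, 41.8 and 33.9 CPM in control and 33.9, 18.4 and 14.3 CPM in knockout mice. Control mouse 42 was the lowest of all for Vnn1, and its log2 fold change of -0.37 (SE 0.49) was 0.01 without control mouse 83 and -0.77 without control mouse 42.

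Ucp2, an uncoupling protein of the inner mitochondrial membrane that macrophages also express, had the largest negative fold change of the 30. It had 60.1, 166 and 179 CPM in control mice 42, 83 and 90 and 57.5, 64.7 and 57.9 CPM in knockout mice 49, 82 and 88. Control mice 83 and 90 stood above the other 4, and control mouse 42 lay inside the range of the knockout mice. Its log2 fold change was -1.17 (SE 0.36; adjusted p = 0.33 in edgeR and 0.0765 in DESeq2). Without control mouse 42, the only control mouse in the range of the knockout mice, it was -1.52 with an adjusted p of 0.0592 in edgeR. With each other mouse left out in turn the adjusted p in edgeR lay between 0.347 and 0.839. The 16 macrophage markers summed to 573, 1380 and 1727 CPM in control mice 42, 83 and 90 and to 717, 981 and 932 CPM in knockout mice 49, 82 and 88, and Trem2 was at 0 in all. The 7 neutrophil markers summed to 18.3, 52.5 and 83.2 CPM and to 11.7, 17.8 and 16.2 CPM. Control mice 83 and 90 were the highest in these sums as in Ucp2, and the part of immune cells in the result was not tested.

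**Figure D5:**
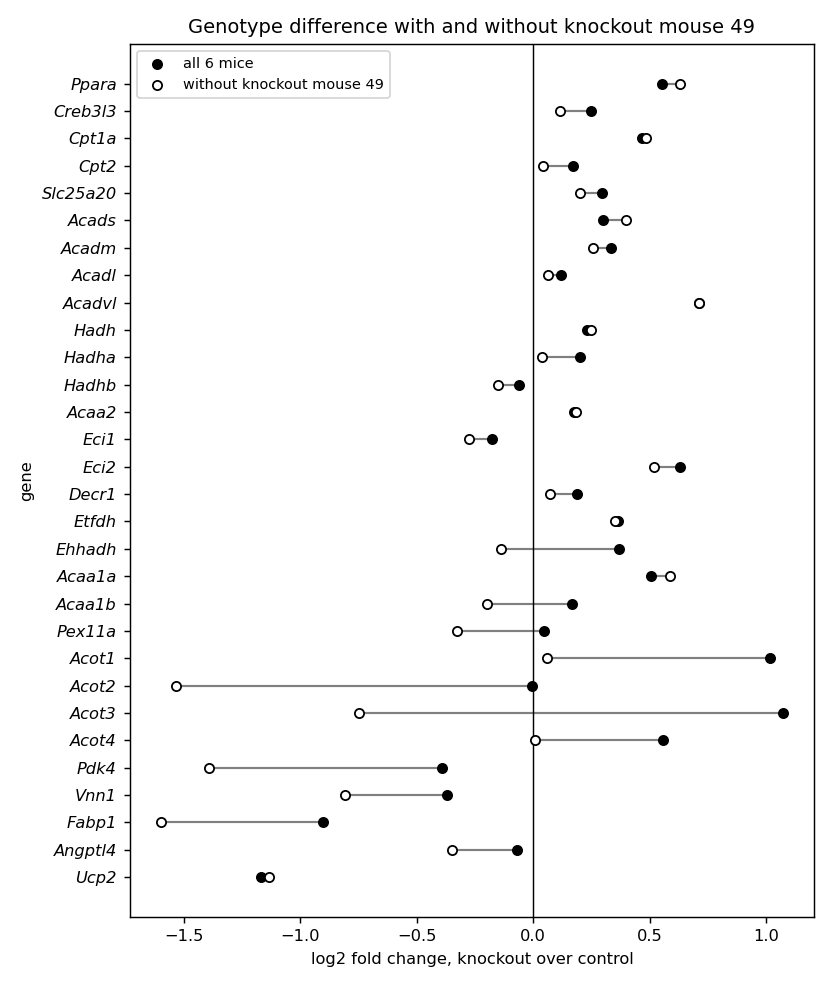
Log2 fold change of knockout over control (x axis) of each gene with all 6 mice (filled points) and without knockout mouse 49 (open points), joined by a line. Acot1 to Acot4, Ehhadh, Pdk4, Fabp1 and Vnn1 move furthest left, and Ehhadh, Acaa1b, Pex11a and Acot3 cross 0. The enzymes of the mitochondrial spiral move less, Hadha the most of them, from 0.20 to 0.04.

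A list of 94 other genes of the pathway was read beside the 30, of which 88 were tested. The list was chosen with earlier results of these data known, so its shares describe it and do not test it. None passed an adjusted p of 0.05 in edgeR or limma-voom. DESeq2 called 5 higher, 5.68% of those tested against 0.875% of all genes, and 1 lower, 1.14% against 0.936%. At an unadjusted p under 0.05 edgeR gave 17 higher (19.3%, against 5.06% of all genes) and 4 lower (4.55%, against 5.95%). The log2 fold change was above 0 in 61 (69.3%), with a median of 0.25. Groups did not overlap in 23 genes, with knockout mice higher in 20 (22.7%, against 8.94% of all genes) and lower in 3 (3.41%, against 7.95%).

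Omega-oxidation, in which cytochromes of the Cyp4a family start fatty acid breakdown at the far end of the chain, had 7 of 8 genes above 0. Cyp4a14, a classical target of PPAR-alpha, had 41.2, 83.1 and 61.6 CPM in control and 764, 474 and 179 CPM in knockout mice 49, 82 and 88, without overlap (2.93, SE 0.51; adjusted p = 0.227 in edgeR and 4.45e-07 in DESeq2). Cyp4a10 had 41.5, 92.3 and 151 CPM against 306, 283 and 109.8 CPM (1.29, SE 0.50), with mouse 88 inside the control range, and Cyp4a32 was at 1.22 (SE 0.32; adjusted p = 0.305 in edgeR and 0.0336 in DESeq2). In the Cyp4a14 values mouse 49 was again the highest, but mice 82 and 88 also stood above the control mice, unlike in Acot1 to Acot4.

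Peroxisomal enzymes that are no members had 15 of 16 genes above 0 with a median of 0.41, and mitochondrial ones 14 of 15 with the same median. Of the peroxisomal genes Acox2 was at 0.61 and Acot12 at 0.64, both without overlap (adjusted p = 0.347 and 0.338 in edgeR). Of the mitochondrial genes Ivd, which acts on leucine rather than on fatty acids, was at 1.04 (adjusted p = 0.0187 in DESeq2) and Acad11 at 0.82. Genes of ketone body synthesis were even, with 3 of 6 above 0. Acat1, a thiolase that joins acetyl units, was at 0.32 (SE 0.22), with overlapping groups.

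Fatty acid uptake and activation genes were divided, 6 above and 6 below 0. Acsl1, the main long-chain acyl-CoA synthetase of liver, had 439, 323 and 351 CPM in control and 746, 669 and 529 CPM in knockout mice, without overlap (0.81, SE 0.24; adjusted p = 0.323 in edgeR and 0.0225 in DESeq2). Fabp5, a binding protein of epithelia and macrophages, had 17.3, 36.4 and 36.1 CPM against 12.2, 14.8 and 9.15 CPM (-1.31, SE 0.32; adjusted p = 0.0176 in DESeq2). DESeq2 also called Slc27a5 (adjusted p = 0.0392), named after its value was seen. PPAR-alpha targets outside oxidation that are no members had 11 of 15 genes below 0, with a median of -0.16. Plin2, the coat protein of lipid droplets, had 889, 505 and 611 CPM in control and 901, 292 and 196 CPM in knockout mice (-0.53, SE 0.52), with mouse 49 beside control mouse 42 and mice 82 and 88 lowest, as for Pdk4. Fgf21, a hormone of fasting, had 5 to 27 counts in control and 1 to 19 counts in knockout mice, too few to compare. Cyp8b1 was at -1.92 and Acsm3 at 0.99.

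Of 16 partners and coregulators of the receptor 12 were above 0. Rxra, which encodes the dimer partner of PPAR-alpha, had 422, 296 and 215 CPM in control and 438, 535 and 536 CPM in knockout mice, without overlap (0.69, SE 0.28; adjusted p = 0.416 in edgeR). Control mouse 90 was the lowest for Rxra as for Ppara. Lpin1 (0.71, SE 0.24) and Ppargc1b (1.29, SE 0.45), both coactivators of the receptor, had the smallest p of this list, and Ppargc1a was at 0.51 (SE 0.32), with overlapping groups.

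Lists of genes tied to the state of the liver are given beside these values. None of their genes passed the edgeR threshold, and the part of these lists in the results was not tested. The summed levels of the fed, peroxisome and hepatocyte lists overlapped between genotypes. Those of the fasting, circadian and mitochondrial content lists did not, with every knockout mouse above every control mouse. Fasting genes listed as outside fat oxidation had 7 of 9 above 0 (median 0.51; Pck1 1.11, Foxo1 0.64). The list includes Ppargc1a, which is also counted among the coregulators of the receptor above. These 9 genes summed to between 3360 and 5043 CPM in control and between 5294 and 9042 CPM in knockout mice. Fed-state genes had 9 of 10 below 0 (median -0.55; Pnpla3 -1.81, Thrsp -0.75). They summed to 14998, 6328 and 5813 CPM in control mice 42, 83 and 90. In knockout mice 49, 82 and 88 the sums were 6970, 3162 and 4112 CPM, with mouse 49 above control mice 83 and 90. Circadian genes had 10 of 12 above 0 (median 0.42, Ciart 0.76, Nr1d2 0.60). Their sums were 578 to 726 CPM in control and 761 to 982 CPM in knockout mice. A sum or count of signs over this list does not give a time of day. The labels give no feeding state or time of collection. Genes of mitochondrial content had 11 of 14 above 0 (median 0.21, Ndufs1 0.53, Sdha 0.56), a median close to the 0.22 of the 30 genes. Their sums were 3761 to 4576 CPM in control and 4969 to 5106 CPM in knockout mice. Genes of peroxisome biogenesis had 16 of 18 above 0 (median 0.20; Pex11g 0.55). Hepatocyte markers had 11 of 14 above 0, with a median of 0.27 (Cps1 1.04, Hnf4a 0.65), above the median of the 30 genes.

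Markers of other cells mostly had negative log2 fold changes, with no gene past the edgeR threshold. Stellate cell and fibroblast markers had 11 of 12 below 0 (median -1.02; Tagln -1.04, Col3a1 -1.58), bile duct markers 9 of 10 (median -0.76; Cldn4 -1.60, Muc1 -1.22) and lymphocyte markers 11 of 11 (median -1.28; Cd79a -1.41). Neutrophil markers had 5 of 5 below 0 (median -2.17; Csf3r -1.01, S100a9 -2.17) and macrophage markers 9 of 15 (median -0.71; Cd14 -1.05, Marco 1.47). Endothelial markers had 6 of 11 below 0 (median -0.06; Ptprb 0.48). Lrat itself had 92.1, 100.2 and 67.3 CPM in control and 26.1, 50.8 and 46.8 CPM in knockout mice (-1.07, SE 0.27; adjusted p = 0.297 in edgeR and 0.0333 in DESeq2). Mouse 49 had the lowest sum of stellate cell markers, 468 CPM. Mice 82 and 88 had 1014 and 996 CPM and control mice 1418 to 1709 CPM. Mouse 49 was also lowest in the sums of bile duct (313 CPM), neutrophil (11.7 CPM) and lymphocyte markers (35.3 CPM, beside 36.9 in control mouse 42). It was not lowest in those of macrophage and endothelial markers. Its Prmt1 level, 35.8 CPM, was the highest of the knockout mice. The relation of these values to its levels in the 30 genes was not tested.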

How the data were processed

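Total RNA of whole liver was sequenced in 6 mice. The authors deposited raw counts per gene symbol in one table. Per the submitters' processing notes, Trimmomatic, FastQC, STAR, HTSeq and mm10 were used. Annotation, strand and multiple-mapping settings: not given in the sources used here. Genotypes came from titles and columns were matched by mouse number, and 0 columns were of other samples. Counts were filtered with filterByExpr, scaled by TMM (factors 0.909 to 1.20) and compared by genotype alone in edgeR 4.0.16 under R 4.3.3 (quasi-likelihood F test), with Benjamini-Hochberg adjustment over 13153 genes. SE is the fold change divided by the root of F. CPM use the TMM-scaled library size. The smallest count of a member in a mouse was 17, for Acot3, where counting error can exceed the spread of the control mice. The fit was tested on simulated data. Exon lengths, overlaps and shared 50-base words come from GENCODE M21 (GRCm38), promoters from RefSeq (GRCm38.p6).

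Named were all 30 members, 8 pathway genes fixed by name, and the 2 genes with the smallest p of each other list, of which a few are not reported here. Members and lists were chosen with earlier results of these data known. Alternatives were RLE factors, total counts, other filters, DESeq2 1.42.0, limma-voom (limma 3.58.1), robust edgeR, scaling without the 20 most abundant genes, a threshold of 0.10, each mouse left out, a term for mouse numbers over 80, and those 4 mice alone. A planned comparison of protein sequences was replaced by the shared 50-base words.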

Additional observations from a re-analysis of the deposited data

How the results depend on the processing

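No member passed an adjusted p of 0.05 under any alternative run, the smallest being 0.0592. Of all genes tested, 4 passed without the low-count filter, 238 in DESeq2, 6 with a term for mouse number and 3 at an adjusted p of 0.10, and between 0 and 13 with a mouse left out, against 0 with all mice in edgeR (1448 at an unadjusted p under 0.05). Members whose groups do not overlap numbered 3 with total counts only (10%, against 17.4% of all genes), 18 with the 4 mice numbered over 80 (60%, against 53.3%), and 7 to 12 with a mouse left out, where both 12 are 40% (against 38% without control mouse 42 and 33.1% without knockout mouse 49). With a mouse left out, 18 to 25 members were above 0, with medians from 0.05 to 0.35. Total counts shifted the median of all genes from -0.02 to -0.17, and the members lay 0.24 above it either way. Of 510 member values under alternatives 24 had the opposite sign. The 510 include the threshold of 0.10, which reuses the fold changes of all mice in edgeR, so its signs could not differ. Robust edgeR gave the same fold changes to the precision used here. Pex11a was at -0.026 in limma-voom, -0.017 with the number term, -0.081 with total counts and -0.23 with mice over 80 alone, where Ehhadh was at -0.19 and Acot3 at -0.73. Acadl was at -0.0053 with total counts. With a mouse left out the lowest and highest values were -1.53 and 0.40 for Acot2, -0.75 and 1.53 for Acot3, -0.14 and 0.61 for Ehhadh, -0.20 and 0.41 for Acaa1b, -0.33 and 0.23 for Pex11a, -0.35 and 0.078 for Angptl4, -0.013 and 0.24 for Acadl, -0.021 and 0.37 for Acaa2, -0.81 and 0.011 for Vnn1, -0.21 and 0.14 for Hadhb, and -0.30 and 0.025 for Eci1. The cause was not tested. No paired analysis was possible because the genotypes share no mouse numbers.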
